A study of Homo sapiens and Mus musculus with 13 samples.

Results

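The heat shock and chaperone genes described here were 10 genes, HSPA1A, HSPA1B, HSPA5, HSPA8, HSPB1, HSPH1, HSP90AA1, HSPD1, DNAJB1 and BAG3, and their mouse counterparts, taken by symbol from 2 expression tables. The human table listed 24523 symbols in 7 libraries of MDA-MB-231, a triple-negative human breast cancer cell line, and the mouse table listed 55228 symbols in 6 mammary tumours. Values were FPKM (fragments per kilobase of transcript, scaled to the fragments mapped in each library), which allow for gene length and can be compared between genes. All 10 symbols were listed in both tables, but HSPA1A and HSPA1B were at 0 in every human library, so 8 human and 10 mouse members passed the filter of a mean FPKM of at least 0.5.

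The cell lines carried Cas9 and guides delivered by lentivirus and puromycin selection, and were named knockdowns (KD). There was 1 Control line, 2 TRIM11-KD lines with TRIM11 guide 1 or 2, 2 KDM5C-KD lines with KDM5C guide 1 or 2, and 2 double knockdown (DKD) lines, which carried TRIM11 guide 1 or 2 together with KDM5C guide 2. The tumours came from MMTV-PyVT mice at 3 months of age, in which the mouse mammary tumour virus promoter drives the polyoma middle T oncogene in mammary epithelium. All 6 tumours carried this transgene, 3 in Trim11+/+ and 3 in Trim11+/- mice, and the Trim11 allele was deleted throughout the body. The lines were sequenced as pools of selected cells as far as the methods state, each library is 1 line or 1 tumour, and p-values measure the spread between these libraries.

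The targeted genes were examined first. Trim11 was 35.8, 36.3 and 39.2 FPKM in Trim11+/+ and 24.0, 22.8 and 22.9 FPKM in Trim11+/- tumours, so the groups did not overlap. In the cells TRIM11 was 12.6 FPKM in Control, 13.4 and 10.6 in TRIM11-KD, 13.6 and 14.2 in KDM5C-KD, and 16.1 and 9.38 in DKD. The libraries labelled TRIM11-KD line 1 and DKD line 1 were thus not below Control in TRIM11 transcript. The study checked its knockdown lines by western blot, and these data hold no protein level. KDM5C was 30.3 FPKM in Control, 29.8 and 28.4 in TRIM11-KD, 20.6 and 21.4 in KDM5C-KD, and 18.8 and 22.7 in DKD. The line's markers VIM and CD44 were at 1038 to 1309 and 188 to 347 FPKM, and PGR was at 0 in all 7 libraries. Recovered read totals of the tumours were between 8793199 and 11117125, while the depth of the cell libraries is unknown.

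Chaperones bind unfolded stretches of other proteins, keep them from aggregating and help them fold. In the cytosol the Hsp70 proteins (HSPA8, HSPA1A, HSPA1B) work with J-domain partners such as DNAJB1, with the exchange factors HSPH1 and BAG3, and hand clients to HSP90AA1. Many of these genes are switched on by heat shock factor 1 when misfolded protein builds up, whereas HSPA5 (BiP) is the Hsp70 protein of the endoplasmic reticulum (ER) and is raised by the unfolded protein response. TRIM11 is a ubiquitin ligase with a known part in the removal of misfolded proteins, and KDM5C is a histone demethylase. The comparisons ask whether the level of either gene goes with the level of the chaperone transcripts.

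The sequences below show promoter stretches of members that hold an element of the heat shock response or of the ER stress response. Promoter windows from RefSeq (GRCh38.p14, 250 bases before to 50 after each start, 300 bases in all) were available for all 10 human members, in 14 windows, and were searched on both strands. The heat shock element (the triplet GAA in 3 units of alternating direction, 2 bases apart, in either phase) was found in 3 of the 10 members (HSPA8, HSP90AA1 and HSPD1), in 6 of 21 other cytosolic heat shock genes and in 0 of 18 ER folding genes. The other 7 members, among them HSPA1A, HSPA1B, HSPB1, HSPH1, DNAJB1 and BAG3, held no match of these letters. Over all 35116 windows 172 (0.49%) held it. This is a share of windows, whereas the lists count genes with a match in any of their windows. The ER stress element (CCAAT and CCACG with 9 bases between them) was found in 1 of the 10 members (HSPA5) and in 6 of 18 ER folding genes, against 27 of all windows (0.0769%). The sequences are given 5′ to 3′ on the gene's strand, with the match in capitals. Those of HSP90B1 and CALR, a pair of ER folding genes, are shown beside HSPA5 for the shared element.
HSPA8: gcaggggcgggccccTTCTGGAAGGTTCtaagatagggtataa
HSP90AA1: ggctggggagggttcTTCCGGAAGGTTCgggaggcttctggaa
HSPA5: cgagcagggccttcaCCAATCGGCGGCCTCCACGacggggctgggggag
HSP90B1: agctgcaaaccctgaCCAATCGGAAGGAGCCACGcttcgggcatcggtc
CALR: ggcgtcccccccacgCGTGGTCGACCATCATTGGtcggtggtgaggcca
These lie at chr11:123062164-123062206 (minus strand), chr14:102087105-102087147 (minus), chr9:125241376-125241424 (minus), chr12:103930201-103930249 (plus) and chr19:12938369-12938417 (plus). The match in HSPA5 lies 48 to 66 bases before the start and the one shown for HSPA8 43 to 55 bases before it, and HSPA8 holds another at 218 to 230 bases. HSP90B1 also holds 2 matches, of which the farther is shown. In CALR the element is on the opposite strand, so it reads as its reverse complement.

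Several members were among the abundant transcripts of both materials. In the cells HSPA8, the constitutive cytosolic Hsp70, ranked 83 of 24523 symbols with a mean of 818 FPKM, followed by HSP90AA1, the inducible Hsp90 (666), HSPA5 (340), the small heat shock protein HSPB1 (313), HSPD1, the mitochondrial Hsp60 (248), DNAJB1 (106), BAG3 (65.2) and HSPH1 (35.4). The ranges over the 7 libraries overlapped between neighbours in this order only for HSPA5 with HSPB1 and HSPB1 with HSPD1. In the tumours Hspa8 was again highest, at a mean of 368 FPKM, followed by Hspa5 (228), Hsp90aa1 (146), Hspd1 (126) and Hspb1 (87.7). Ranges overlapped between Hsp90aa1 and Hspd1 and between Hspd1 and Hspb1. Below these, Hspa1b (24.8), Dnajb1 (19.6), Hsph1 (16.1) and Bag3 (15.1) had ranges that overlapped from each to the next, and Hspa1a was lowest at 6.67 FPKM. In reads, the members' counts in the tumours ran from 146 for Hspa1a to 20396 for Hspa8.

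HSPA1A and HSPA1B, the stress-inducible cytosolic Hsp70 genes, could not be read in the cells. They lie side by side at chr6:31783320-31785723 and chr6:31795515-31798031 (hg19). The human table had 5 rows for each, and all were at 0 in every library. LSM2, a gene of the same region, had 6 rows, of which 1 held values, with a mean of 40.2 FPKM, so the zeros may be failed estimates and no statement on these genes is made. Of all 150-base windows of the HSPA1A transcript, 69.6% occurred unchanged in that of HSPA1B, with a longest shared run of 1715 bases. In mouse, where both genes had values, the share was 38.1% of the Hspa1a transcript and the longest shared run 638 bases, so the split of reads between Hspa1a and Hspa1b is uncertain.

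In the cells HSPB1 was the member that differed most between lines (the plot of FPKM by line). It was 198 FPKM in Control, 222 and 304 in TRIM11-KD, 395 and 304 in KDM5C-KD, and 416 and 355 in DKD. Every knockdown library was above Control, and the 4 libraries with a KDM5C guide were the highest, the lowest of them (304.2) just above TRIM11-KD line 2 (304.1), and 10.7% of all genes likewise had no overlap between libraries with and without a KDM5C guide. HSPB1 was 1.54 to 2.00 times Control in the KDM5C-KD lines and 1.79 to 2.1 times in the DKD lines. It was the only one of 8 members tested to exceed Control by 1.5-fold in both KDM5C-KD lines, as 5.22% of all 12636 genes did, and the only one to do so in both DKD lines, as 5.71% did. No member was past 1.5-fold in both TRIM11-KD lines, against 5.83% of all genes in either direction, and none was below Control by 1.5-fold in both lines of KDM5C-KD, TRIM11-KD or DKD, where 3.97%, 2.58% and 4.87% of genes were. With 1 Control library these ratios have no replicate check on the Control side. At a fold of 2 no member passed in any pair of lines.

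**Figure D1:**
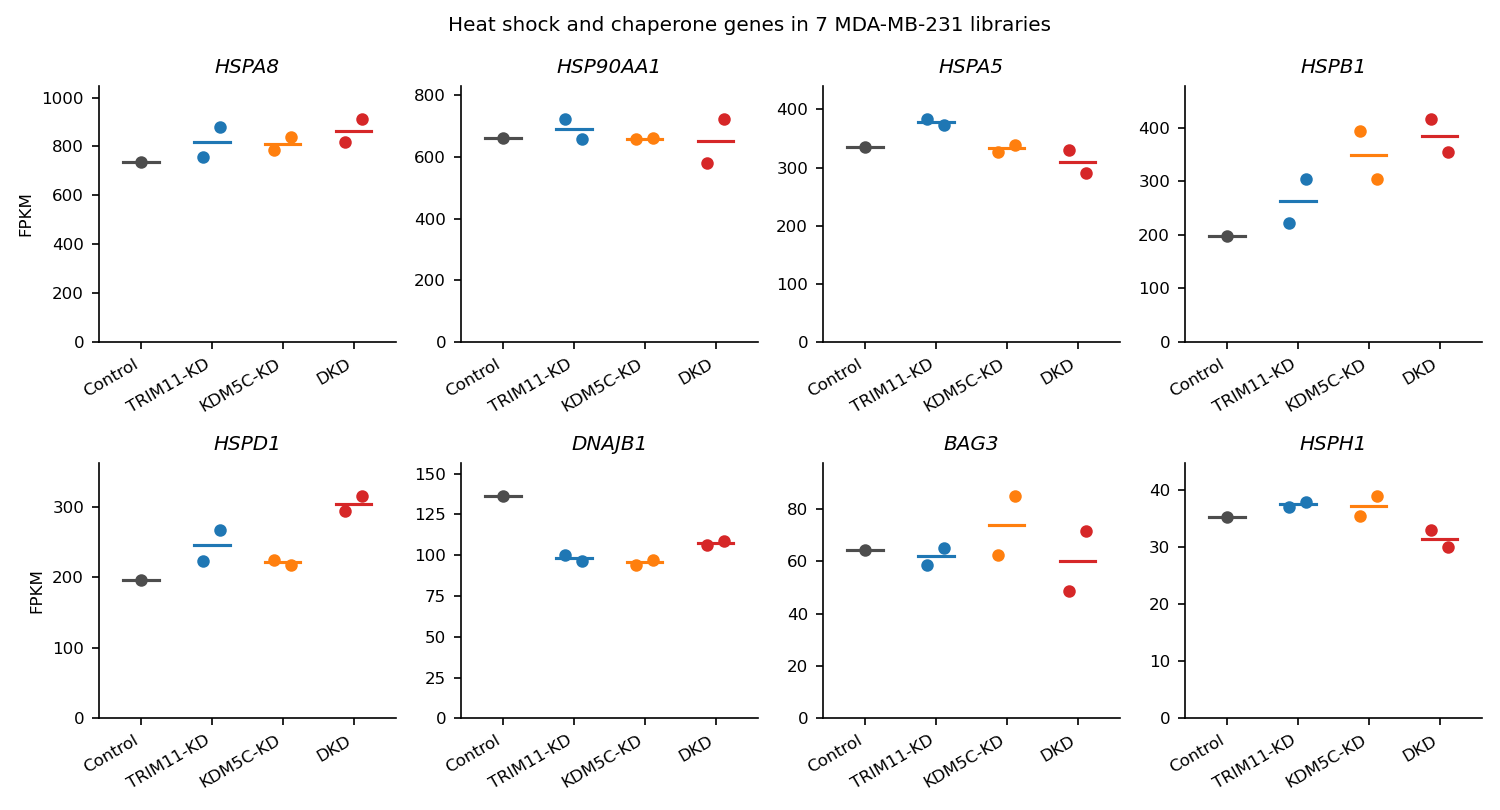
FPKM of 8 members in each MDA-MB-231 library (y axis from 0, a scale per gene) by group: 1 Control, 2 TRIM11-KD, 2 KDM5C-KD and 2 DKD lines; points are libraries and lines group means. HSPB1 runs from 198 FPKM in Control to 416 in DKD line 1, and DNAJB1 is highest in Control at 136.

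HSPD1 and DNAJB1 also stood on 1 side of Control in all 6 knockdown libraries. HSPD1, which folds proteins in the mitochondrial matrix, was 196 FPKM in Control, 223 and 267 in TRIM11-KD, 225 and 218 in KDM5C-KD, and 294 and 315 in DKD. The DKD lines were the highest, at 1.495 and 1.61 times Control, the first of them short of 1.5. DNAJB1, the J-domain partner that delivers clients to Hsp70, was 136 FPKM in Control, 100.2 and 96.6 in TRIM11-KD, 94.3 and 97.3 in KDM5C-KD, and 106 and 109 in DKD. The 6 knockdown libraries lay close together, at 0.692 to 0.796 times the single Control. HSPA8 was above Control in all 6 libraries as well, at 1.03 to 1.23 times. Of all genes tested, 13.6% were above Control in all 6 libraries and 16.1% below it in all 6, so such agreement with 1 shared Control was common.

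The remaining members varied less, or varied within groups. HSPA5 was 336 FPKM in Control, 383 and 373 in TRIM11-KD, 326 and 339 in KDM5C-KD, and 330 and 291 in DKD. HSP90AA1 was between 581 and 722 FPKM, with both of these extremes in the DKD lines. BAG3, which links Hsp70 to autophagy, differed between lines of 1 group, with 62.5 and 85.0 FPKM in KDM5C-KD and 48.8 and 71.8 in DKD, around 64.2 in Control. HSPH1, the Hsp110 exchange factor, was between 30.1 and 39.0 FPKM, lowest in the DKD lines. The ratio of the highest to the lowest library was 2.1 for HSPB1, 1.74 for BAG3 and 1.61 for HSPD1, and 1.23 to 1.45 for the other 5, beside a median of 1.57 over all genes tested.

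**Figure D2:**
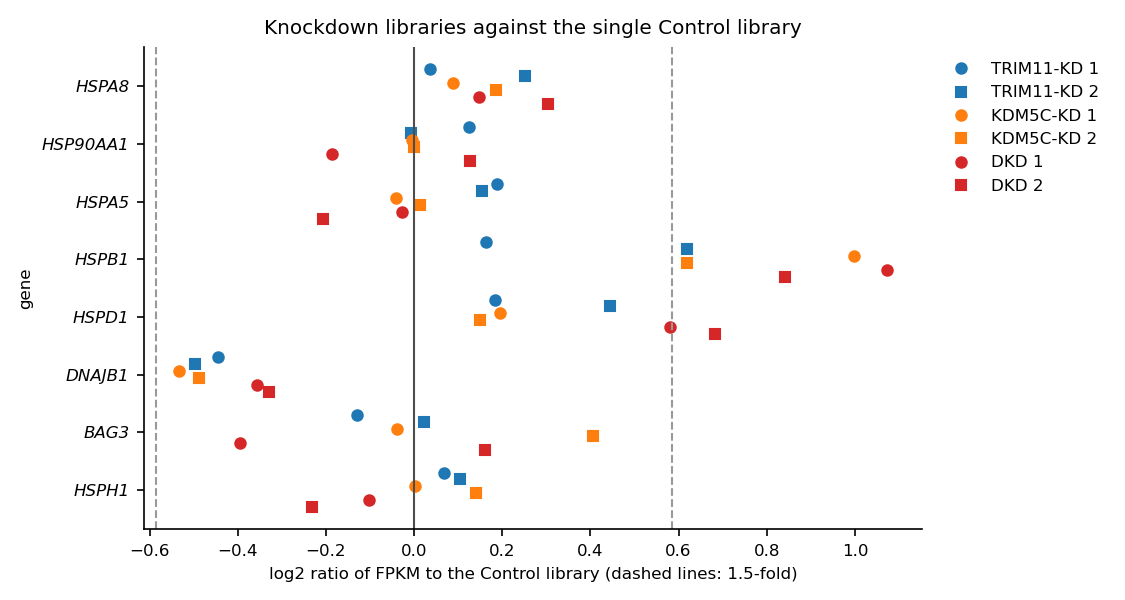
Log2 ratio of each knockdown library's FPKM to the Control library (x axis) for 8 members (y axis); circles are line 1 and squares line 2 of each group, and dashed lines mark 1.5-fold. Both KDM5C-KD and both DKD points of HSPB1 lie past the right dashed line, and all 6 points of DNAJB1 lie left of 0.

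Fits over all libraries gave no member past the threshold. A limma model on log2(FPKM + 1) with 1 term for each guide used all 7 libraries, and a gene was called at an adjusted p (Benjamini-Hochberg over all genes) under 0.05. For the KDM5C guide present against absent, 0 of 8 members were called and 2 had an unadjusted p under 0.05, while 1 of 12636 genes (0.00791%) was called and 11.1% had such an unadjusted p. HSPB1 had a log2 difference of 0.66 (SE 0.16, limma adjusted p = 0.383, unadjusted 0.00361) and HSPD1 of 0.26 (SE 0.099, limma adjusted p = 0.427). Over all alternatives the HSPB1 value was between 0.56 and 0.81, with limma adjusted p between 0.258 and 0.853. The other 6 members were between -0.18 (HSPA5) and 0.10 (HSPA8). The members' median was -0.01 against 0.00 over all genes.

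For the TRIM11 guide present against absent, 0 of 8 members and 0 of 12636 genes were called (0%), and 1 member had an unadjusted p under 0.05, where 10.7% of genes had one. That member was HSPD1, higher by 0.40 on the log2 scale (SE 0.099, limma adjusted p = 0.448, unadjusted 0.0045). Its partner in the mitochondrial folding cage, HSPE1, counted in 1 entry with HSPE1-MOB4 and MOB4, was higher by 0.30 (SE 0.11, limma adjusted p = 0.448). TRIM11-KD line 1 and DKD line 1, where TRIM11 transcript was not below Control, had 223 and 294 FPKM of HSPD1, and the lines with TRIM11 guide 2 had 267 and 315. HSPB1 was higher by 0.24 with the TRIM11 guide (SE 0.16, limma adjusted p = 0.593), and the other 6 members were between -0.20 (BAG3) and 0.11 (HSPA8). An interaction term of both guides, added after the data were seen, called 2 of 12636 genes (0.0158%) and no member, with 5.49% of genes and 1 member at an unadjusted p under 0.05. Its largest member value was that of DNAJB1, at 0.63 (SE 0.16, limma adjusted p = 0.879), which rests on the single Control library.

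The knockdown groups were also compared with each other without Control. Between KDM5C-KD and DKD 0 of 8 members and 0 of 12633 genes were called (0%), with 11.7% of genes at an unadjusted p under 0.05. HSPD1 was lower in KDM5C-KD by 0.46 on the log2 scale (SE 0.13, limma adjusted p = 0.375). Between DKD and TRIM11-KD 1 gene (0.00792%) and no member was called, and 3 of 8 members and 7.03% of genes had an unadjusted p under 0.05, with log2 differences of 0.56 for HSPB1 (SE 0.21), 0.32 for HSPD1 (SE 0.13) and -0.29 for HSPA5 (SE 0.12), all with a limma adjusted p between 0.704 and 0.709. Between KDM5C-KD and TRIM11-KD 1 gene (0.00792%) and no member was called, 9.88% of genes and 0 members had an unadjusted p under 0.05, and HSPB1 had a log2 difference of 0.42 (SE 0.21, limma adjusted p = 0.529). These comparisons use the same 6 libraries and are not separate evidence.

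Of the line's markers, EPCAM, KRT18 and VIM stood higher in the same libraries as HSPB1. Of all genes, 10.7% had no overlap between libraries with and without a KDM5C guide, in either direction. EPCAM, an epithelial surface protein, was 4.03 FPKM in Control, 5.0 and 6.77 in TRIM11-KD, and 10.3 to 12.3 in the 4 libraries with a KDM5C guide. KRT18, an epithelial keratin, was 296 in Control, 321 and 342 in TRIM11-KD, and 390 to 440 with a KDM5C guide. VIM was 1038 in Control, 1056 and 1127 in TRIM11-KD, and 1134 to 1309 with a KDM5C guide. Of the 5 markers tested none was called for the KDM5C guide, and the log2 differences were 1.08 for EPCAM, 0.40 for KRT18, 0.20 for VIM, -0.03 for CD44 and -0.23 for CDH1, an epithelial adhesion protein at 0.62 to 1.98 FPKM. ESR1 and PGR were at or near 0. Their part in the HSPB1 difference was not tested.

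Some genes of the wider chaperone lists of the cells were past 1.5-fold in both lines of a group. Of all 12636 genes, 5.22% were above Control in this way in KDM5C-KD and 5.71% in DKD. In TRIM11-KD 5.83% passed in either direction. Of 22 other cytosolic heat shock genes tested, HSPA6, an inducible Hsp70 gene, was above in TRIM11-KD and DKD, but at 0.24 to 0.68 FPKM over all 7 libraries. Of 19 ER folding genes, SDF2L1, an ER chaperone cofactor, was above in KDM5C-KD, at 27.3 and 40.6 FPKM against 17.3 in Control. Of 4 heat shock factor genes, the entry shared by HSF4 and FBXL8 was above in KDM5C-KD, at 7.15 and 5.80 FPKM against 3.67. None of 11 mitochondrial folding genes or 8 chaperonin subunits passed in any group. In the guide fits no gene of these lists was called. For the KDM5C guide their extremes among genes with a mean of at least 5 FPKM were ZFAND2A (-0.53) and HSPB8 (0.32) of the cytosolic list, DDIT3 (-0.45) and SDF2L1 (0.47) of the ER list, YME1L1 (-0.14) and the HSPE1 entry (0.23) of the mitochondrial list, TCP1 (-0.11) and CCT5 (0.15) of the chaperonin, and HSF2 (-0.17) and HSBP1 (0.04) of the factors. For the TRIM11 guide they were HSPB8 (-0.84) and DNAJB4 (0.30), DDIT3 (-0.53) and SYVN1 (0.19), DNAJA3 (-0.12) and the HSPE1 entry, TCP1 (-0.26) and CCT5 (0.14), and HSF2 (-0.27) and HSF1 (-0.16). HSF1, the master regulator of the heat shock response, was 77.2 FPKM in Control and 60.7 to 71.6 in the knockdown lines. The medians of the 3 larger lists lay between -0.02 and 0.05 for the KDM5C guide and between -0.10 and 0.03 for the TRIM11 guide, beside 0.00 and -0.01 over all genes. The ER folding list was less flat between the knockdown groups. Of its 19 genes 17 had a higher level in the KDM5C-KD lines than in the DKD lines, with a median log2 difference of 0.21. An unadjusted limma p under 0.05 in that direction was reached by 5 of the 19, beside 737 of all 12633 genes. In DKD 18 of the 19 were lower than in TRIM11-KD, with a median of -0.12. Such a p was reached by 3 of them, beside 411 of all 12633 genes in that direction. The medians over all genes were 0.00 and 0.01. These comparisons share the DKD lines, and none of the genes was called. DDIT3 was 17.8 and 21.4 FPKM in KDM5C-KD, 20.0 and 17.1 in TRIM11-KD, 18.8 in Control, and 13.5 and 7.79 in DKD. The list of 10 immediate-early genes, described with the tumours below, also differed between the knockdown groups. For KDM5C-KD against DKD its median was 0.44, with 8 higher and 2 lower. For DKD against TRIM11-KD it was -0.20, with 2 higher and 8 lower. The KDM5C-KD lines were themselves apart for some of these genes, with EGR1 at 49.6 and 157 FPKM and FOS at 71.9 and 136. In the DKD lines EGR1 was 21.8 and 27.9 and FOS 57.9 and 86.2 FPKM. In both DKD lines EGR1 (0.25 and 0.32 times Control) and IER2 (0.65 and 0.49) passed 1.5-fold downward, and ATF3 (1.85 and 2.00) upward. Of all genes, 4.87% passed downward and 5.71% upward in both DKD lines. For the KDM5C and TRIM11 guides the list's extremes were EGR1 (-0.86 and -1.2) and ATF3 (0.48 and 0.46), neither called.

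In tumours the member that separated the genotypes was Hspa5, the ER chaperone BiP (the plot of FPKM by tumour). It was 231, 294 and 283 FPKM in Trim11+/+ and 184, 181 and 195 FPKM in Trim11+/- tumours. Every Trim11+/- tumour was below every Trim11+/+ tumour, and the 3 Trim11+/- values lay closer together. The ratio of means was 0.692 and the log2 difference -0.52 (SE 0.12, limma unadjusted p = 0.00463, adjusted p = 0.594). A two-sided exact permutation test gave p = 0.1, the smallest that 3 against 3 tumours allow. Hspa5 was the only one of 10 members without overlap in either direction. Of 17328 genes, 6.78% were lower and 6.6% higher without overlap, so 1 such member of 10 does not stand out. Hspa5 also stayed short of the 1.5-fold that the call required.

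**Figure D3:**
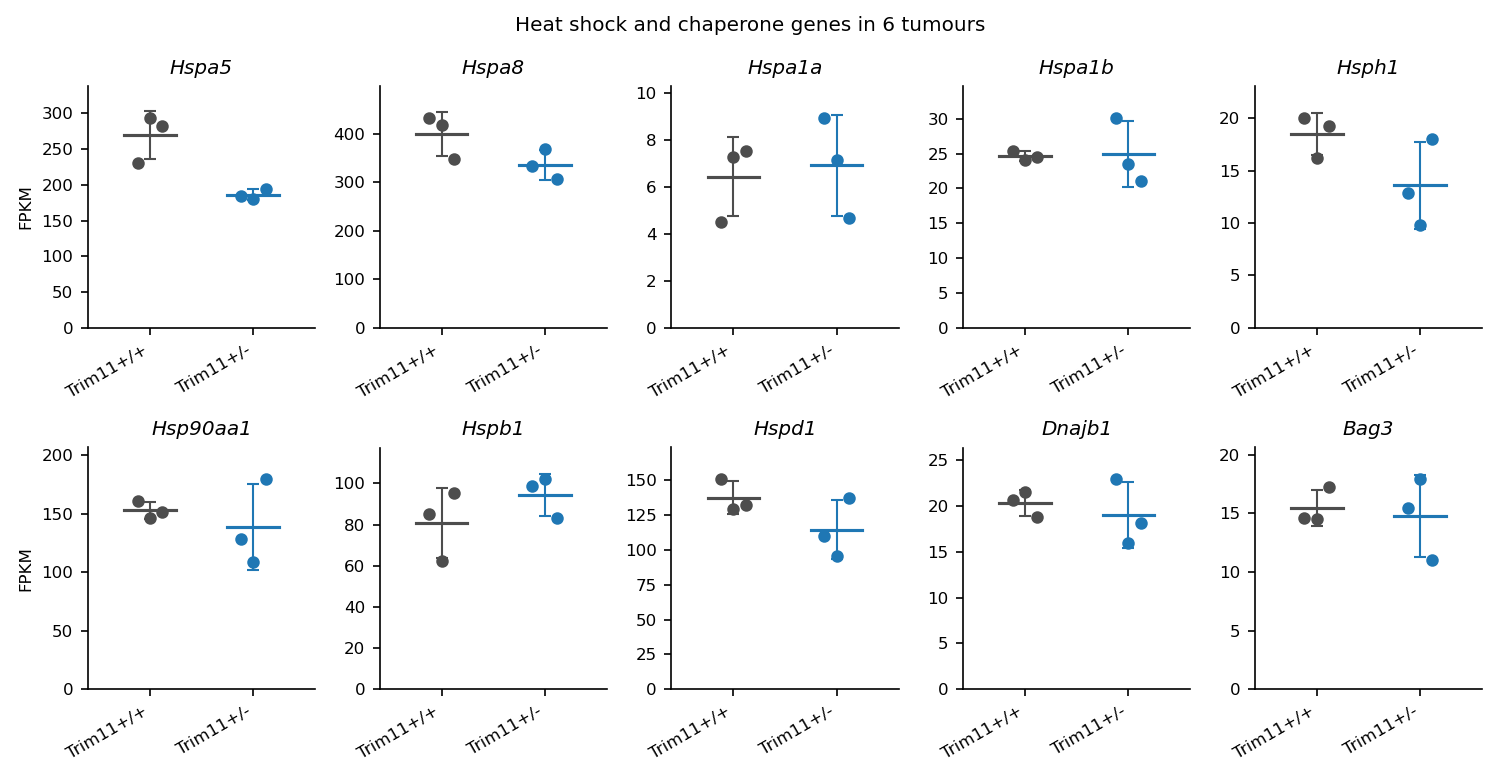
FPKM of the 10 members in each tumour (y axis from 0, a scale per gene) for 3 Trim11+/+ and 3 Trim11+/- tumours; points are tumours, horizontal lines means and bars ± SD. Only for Hspa5 do the groups not overlap, with 181 to 195 FPKM in Trim11+/- and 231 to 294 in Trim11+/+.

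No member was called between the genotypes, where a call asked for mean FPKM that differed by 1.5-fold or more together with a limma p, unadjusted, under 0.05. Of 17328 genes 625 (3.61%) met this, and 1 gene (0.00577%) had an adjusted p under 0.05. Of the 10 members 8 were lower and 2 higher in Trim11+/-, with a median log2 difference of -0.14 against 0.00 over all genes, of which 50.9% were lower. Hspa5 was the 1 member with an unadjusted limma p under 0.05, as were 6.94% of all genes. Leaving out Trim11+/+ replicate 1 brought Hspa5 past 1.5-fold, at a log2 difference of -0.63 (limma adjusted p = 0.485). Leaving out Trim11+/- replicate 3 brought Hsph1 past it, at -0.66 (limma adjusted p = 0.425). Over all alternatives Hsph1 was between -0.66 and -0.26, with limma adjusted p between 0.425 and 0.975. Over all alternatives Hspa5 was between -0.63 and -0.46, with limma adjusted p between 0.458 and 0.975.

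Among the cytosolic Hsp70 genes, Hspa8 was 434, 419 and 349 FPKM in Trim11+/+ and 334, 368 and 307 in Trim11+/- tumours. The groups overlapped by 1 tumour on each side, and the log2 difference was -0.25 (SE 0.14, limma adjusted p = 0.752). The inducible genes did not separate the genotypes, with Hspa1a at 4.50, 7.26 and 7.52 against 8.94, 7.13 and 4.67 FPKM, and Hspa1b at 25.4, 24.0 and 24.5 against 30.2, 23.5 and 21.0 FPKM. Trim11+/- replicate 1 was highest in both. Their log2 differences were 0.08 (SE 0.26) and 0.00 (SE 0.14).

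Of the Hsp70 cofactors, Hsph1 was 20.1, 16.2 and 19.3 FPKM in Trim11+/+ and 12.9, 9.83 and 18.0 in Trim11+/- tumours. Trim11+/- replicate 3 lay within the Trim11+/+ range, and the log2 difference was -0.45 (SE 0.21, limma adjusted p = 0.720). Dnajb1 was 18.8 to 21.6 FPKM in Trim11+/+ and 15.9 to 22.9 in Trim11+/-, and Bag3 14.6 to 17.3 and 11.01 to 17.9 FPKM. For both, 1 Trim11+/- tumour lay above all Trim11+/+ tumours and at least 1 lay below them all, and the log2 differences were -0.10 (SE 0.15) and -0.08 (SE 0.18).

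Hsp90aa1 was 161, 146 and 151 FPKM in Trim11+/+ and 128, 108 and 179 in Trim11+/- tumours, where it spanned the widest range of both groups, with a log2 difference of -0.17 (SE 0.19). Hspd1 was 151, 130 and 132 FPKM in Trim11+/+ and 110, 95.9 and 138 in Trim11+/- tumours, with a log2 difference of -0.28 (SE 0.15, limma adjusted p = 0.754). Hspb1, the member that was highest with a KDM5C guide in the cells, was 85.2, 62.1 and 95.3 FPKM in Trim11+/+ and 98.6, 102 and 83.0 in Trim11+/- tumours, with overlap and a log2 difference of 0.24 (SE 0.18, limma adjusted p = 0.819). Trim11+/- replicate 2 was the lowest of all 6 tumours for 5 members, Hspa5, Hsp90aa1, Hspd1, Hsph1 and Dnajb1, and the highest for Hspb1 and Bag3. Summed over the 10 members, the share of all FPKM was 0.341% to 0.355% in Trim11+/+ and 0.291% to 0.297% in Trim11+/- tumours. These sums do not overlap, but Hspa8 and Hspa5 make up most of them, and every member other than Hspa5 overlapped between the genotypes.

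Hspa5 was accompanied by other genes of ER protein folding (the plot of list values). Of 19 ER folding genes none was called, but 8 were lower in every Trim11+/- tumour than in every Trim11+/+ tumour and 1 was higher, beside 6.78% and 6.6% of all genes. The list's median log2 difference was -0.24 against 0.00 over all genes, and 13 of 19 were lower. Hyou1, an ER exchange factor for BiP, was 30.8, 28.4 and 33.8 FPKM in Trim11+/+ and 20.1, 21.8 and 21.4 in Trim11+/- tumours, with a log2 difference of -0.53 (SE 0.098, limma adjusted p = 0.437). Sdf2l1, a cofactor of ER J-domain proteins, was 43.8, 55.4 and 55.5 against 35.7, 34.4 and 34.1 FPKM, with a log2 difference of -0.55 (SE 0.12, limma adjusted p = 0.582). For both, the Trim11+/- tumours lay closer together than the Trim11+/+ tumours.

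Calr, a lectin chaperone, was lower by 0.47 on the log2 scale (264, 298 and 313 against 220, 216 and 195 FPKM). Pdia4, a disulfide isomerase, was at -0.43 (74.4, 86.4 and 83.3 against 60.4, 58.1 and 61.7 FPKM), Manf, a secreted ER stress protein, at -0.43, and Dnajb11, an ER J-domain protein, at -0.27. Pdia3 and Pdia6 also did not overlap, at -0.17 and -0.27. For Pdia6 the gap was narrow, between 113.87 FPKM in Trim11+/+ replicate 1 and 113.84 in Trim11+/- replicate 3. Herpud1, which serves ER-associated degradation, went the other way, at 38.9, 34.5 and 46.2 FPKM in Trim11+/+ and 49.9, 48.0 and 51.3 in Trim11+/- tumours, with a log2 difference of 0.32 (SE 0.12, limma adjusted p = 0.707). Xbp1, the factor that directs part of the unfolded protein response, was 515 to 559 FPKM in Trim11+/+ and 538 to 659 in Trim11+/-, and Ddit3, a factor of prolonged ER stress, 7.43 to 10.9 and 8.04 to 10.3 FPKM, both with overlap. Over the leave-one-out fits the list's median stayed between -0.30 and -0.17.

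**Figure D4:**
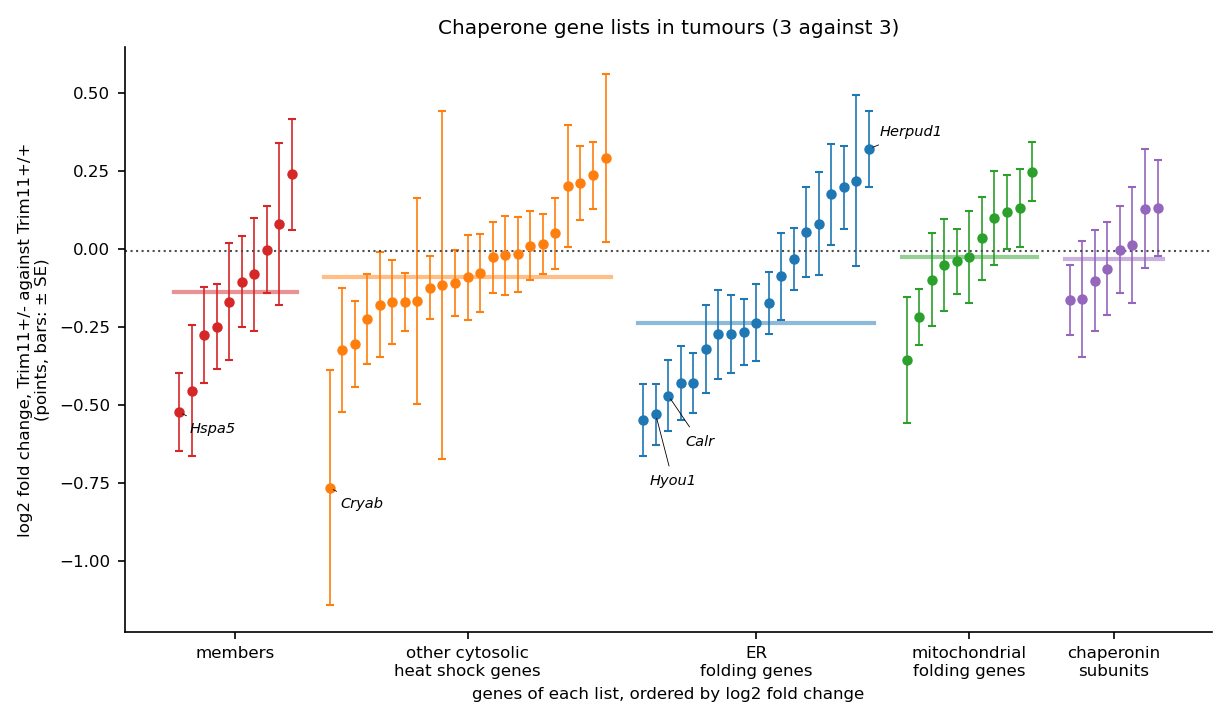
Log2 fold change of Trim11+/- against Trim11+/+ tumours (y axis, points with ± SE bars from limma) for the genes of 5 lists, ordered within each list along the x axis; thick lines are list medians and the dotted line the median of all genes. The ER folding genes have a median of -0.24, the members -0.14 and the other cytosolic heat shock genes -0.09, and no gene shown was called.

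The other lists lay nearer to the median of all genes in tumours. The median was -0.09 over 23 other cytosolic heat shock genes, from Cryab (-0.77, SE 0.38), a small heat shock protein, to Dnaja4 (0.29), with 1 gene lower and 1 higher without overlap. It was -0.03 over 11 mitochondrial folding genes, from Hspe1 (-0.36) to Clpx (0.25), -0.03 over 8 chaperonin subunits, from Cct2 (-0.16) to Tcp1 (0.13), and -0.01 over 4 heat shock factor genes, where those with a mean of at least 5 FPKM were Hsf1 (-0.02) and Hsbp1 (0.01). None of these genes was called.

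Levels of other transcripts differed between the same tumours. The immediate-early genes, which respond to the handling of tissue, had a median of -0.40, from Fos (-0.73) to Zfp36 (0.15), with 9 of 10 lower, and their summed level was 288 to 385 FPKM in Trim11+/+ and 235 to 287 in Trim11+/- tumours. Of 4 basal epithelium markers 3 were called lower (Krt5 -2.05, Krt14 -0.91 and Trp63 -0.71), beside 3.61% of all genes called in either direction. The other, Acta2, was not called, at 21.6 to 138 FPKM in Trim11+/+ and 17.0 to 27.0 in Trim11+/- tumours. The summed level of the 4 markers was 124 to 306 FPKM in Trim11+/+ and 56.5 to 87.7 in Trim11+/- tumours. Of 4 tumour epithelium markers none was called, at 1214 to 1555 and 1285 to 1647 FPKM. Summed levels of 5 skeletal muscle markers were 23.3 to 230 FPKM in Trim11+/+, 275 in Trim11+/- replicate 1 and 2.06 and 2.60 in Trim11+/- replicates 2 and 3, where Myh4 was at 0. All 4 fibroblast markers, all 4 macrophage markers and all 4 endothelial markers were lower in Trim11+/-, with medians of -0.34, -0.22 and -0.19 and none called, and 3 of 4 adipocyte markers were lower, with a median of -0.23. Their summed levels overlapped between the genotypes, at 75.4 to 174 and 75.0 to 125 FPKM for fibroblasts, 143 to 210 and 142 to 156 for macrophages, 12.4 to 18.6 and 9.62 to 16.9 for endothelium, and 14.9 to 117 and 8.56 to 83.0 for adipocytes. T cell markers were too low to be tested. The part of these cell types and of handling in the Hspa5 and ER folding differences was not tested. In bulk tumours fewer cells of a type and less RNA per cell cannot be told apart.

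Members did not vary together as 1 group across libraries. Over the 28 pairs of 8 human members the median Pearson correlation of log2(FPKM + 1) was -0.18, with 9 pairs above 0, and over the 45 pairs of mouse members 0.15, with 26 above 0, as descriptions over 7 and 6 libraries that share their conditions. Outside the lists, the 5 genes most like the mean standard score of the other members were KIF18B, MAD2L2, CCSAP, GPX4 and CEP170B in the cells, with correlations of 0.971 to 0.985, and Lpcat3, Szrd1, Myl6, Nsf and Tmem198b in tumours, with 0.981 to 0.995. Those most like HSPA5 were TPST1, TMUB2, ZNF562, GOLGA8B and ZBTB5 in the cells, with 0.952 to 0.973, and Acbd3, Ptpn2, Wnt5a, Sar1a and Lrrc57 in tumours, with 0.977 to 0.994. They are the highest values among genes that averaged 5 FPKM or more, over few libraries. The mean score did not follow every member in it. DNAJB1 (-0.287) and HSPH1 (-0.206) in the cells and Hspb1 (-0.07) in tumours correlated with it below 0, and the other members above 0. Some members did vary together in tumours, with correlations of 0.914 to 0.976 among Hsph1, Hspd1 and Hsp90aa1.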

How the data were processed

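RNA-Seq was measured in 7 MDA-MB-231 libraries and 6 mouse tumours. The authors used poly(A) selection and non-directional libraries, trimmed the reads, aligned them with HISAT2 to hg19 or mm10 and computed FPKM with Cufflinks. The submitters' processing notes also name Bowtie 0.12.2 and mm8. The deposited FPKM values were used as given, 1 column per library and no column left out. Tumour FPKM were whole reads for 98.8% of 28794 genes (tolerance 0.01 reads). The depth of the cell libraries is unknown.

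The row with the highest mean was kept for each symbol, and 25 human symbols turned into dates were set aside. Those with mean FPKM at or above 0.5 were tested on log2(FPKM + 1) with limma 3.58.1 (lmFit, eBayes with a trend, R 4.3.3) and Benjamini-Hochberg adjustment, 12636 human and 17328 mouse genes. A fold change on this scale understates the change of low genes. Tumours were called by a 1.5-fold ratio of means and an unadjusted limma p under 0.05, since the study states 1.5-fold and a p under 0.05 but names no test or adjustment for it. Lines were called against the 1 Control by 1.5-fold in both lines, with no p. Fits across lines used an adjusted p under 0.05. Single members in tumours also had a two-sided exact permutation test. The fits were tested on simulated data.

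Members and gene lists (written from general knowledge) were chosen with earlier results of these data known. Named genes were the members, the targeted genes, the highest and lowest of each list with a mean FPKM of at least 5 in the tumour, KDM5C guide and TRIM11 guide comparisons, and the 5 most like genes by Pearson correlation. Other genes named, the ER folding genes without overlap and those past 1.5-fold among them, were chosen after their values were seen. Non-directional libraries do not separate a gene from an antisense partner, and pseudogene copies of HSPA8, HSPD1 and HSP90AA1 can share reads. Replicate numbers of the tumours paired nothing (correlations of deviations -0.33, 0.038 and -0.13). Those of the lines stand for guides. Alternatives covered pseudocount, filter, scaling, moderation, replicate block, samples in the fit and leaving out each library. Computations used Python 3.11.15, numpy 2.4.6, pandas 2.3.3, scipy 1.17.1 and matplotlib 3.10.9.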

Additional observations from a re-analysis of the deposited data

Results flagged for a closer look

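HSPA5 was flagged because both TRIM11-KD lines stood above Control in the cells, with a mean log2 ratio of 0.17, while every Trim11+/- tumour stood below every Trim11+/+ tumour, with a log2 difference of -0.52. The DKD lines, which carry the same TRIM11 guides, were below Control, with a mean log2 ratio of -0.12, and over all 7 libraries the log2 difference with the TRIM11 guide was 0.0068. TRIM11 transcript was not below Control in TRIM11-KD line 1 and DKD line 1. The difference between cells and tumours was not tested, and the materials differ in species and in having 1 Control library against 3 tumours. No group held more than 3 libraries, so no library was tested as an outlier within its group.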

How the results depend on the processing

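Of the counts of members called, those of the 5 limma comparisons of lines were 0 under every alternative. In tumours the count was 0 in all but 2 leave-one-out fits, so it ranged from 0 to 1, by Hspa5 without Trim11+/+ replicate 1 and by Hsph1 without Trim11+/- replicate 3. ER folding genes called in tumours ranged from 0 to 1 in the leave-one-out fits (Sdf2l1 without Trim11+/+ replicate 1 or Trim11+/- replicate 1, Hyou1 without Trim11+/+ replicate 2). Against Control, members past the limit were 0 at a fold of 2 for KDM5C-KD and DKD, and 2 for DKD with scaling by median ratios or with the mean of both lines (HSPB1 and HSPD1). With 1 line at a time they ranged from 0 to 1 for TRIM11-KD, where TRIM11-KD line 2 alone brings in HSPB1, from 1 to 2 for DKD, and were 1 for KDM5C-KD. Hspa1b, close to 0, changed sign with scaling by median ratios (0.0044), with limma voom on recovered reads (0.00015) and in leave-one-out fits (-0.14 to 0.11), as did Hspa1a (-0.12 to 0.30), Dnajb1 (-0.24 to 0.0087) and Bag3 (-0.22 to 0.10) in leave-one-out fits. A replicate block that paired by number was run in 4 fits, the tumours and the 3 comparisons between knockdown groups. Only between DKD and TRIM11-KD did this pair lines with the same guide. The block left 0 members called in each fit. In these balanced groups the block cannot change a log2 difference, so the unchanged directions are no added evidence. Lone lines in leave-one-out fits are assumed to vary like the other groups. The limits are 1 Control library, 2 lines a group and 3 tumours a genotype.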
